A study of Canis lupus familiaris with 16 samples.

Results

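The collagen genes of the dog, taken as every gene whose symbol is COL, a number, A and a number, were followed through the DNA methylation peaks of high-grade B-cell lymphoma and of healthy blood. Of 45 such symbols looked for, 37 were measured, which means that at least 1 deposited peak was assigned to them, out of 18147 measured genes. The 37 comprised 11 of 11 fibrillar collagens, 6 of 6 type IV collagens, which form the network of basement membranes, and 20 of 28 other collagens. COL6A1, COL6A2, COL6A4, COL9A3, COL10A1, COL18A1, COL20A1 and COL25A1 had no assigned peak and were not measured, and 19 loci described as collagen-like but lacking such a symbol were left out by the rule. The lymphoma samples were tumour cells drawn by needle from enlarged lymph nodes of 5 dogs aged 5 to 13 years (median 10), with disease staged from III to V. The healthy samples were mononuclear cells from the blood of 3 dogs aged 2 to 7 years (median 5). Methylated DNA of each dog was captured (MethylCap-seq) and sequenced as 2 libraries, labelled L and M-H, whose meaning the labels do not give, which makes 16 libraries. The breeds differed between dogs. Disease, tissue, age and breed cannot be told apart in this design.

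The authors deposited 1 peak list for each group and library type, with the dogs of a group combined, so that the tables used here hold no value per dog and no test between groups was made from them. For L libraries the lymphoma dogs gave 45623 peaks that covered 33.2 Mb, and the healthy dogs gave 44811 that covered 26.7 Mb. For M-H libraries there were 34939 peaks (27.9 Mb) in lymphoma and 19867 (12.4 Mb) in healthy blood. Each peak carries a fold enrichment, the authors' ratio of captured reads to a background, and no list holds a value below 6, so a missing peak can still be methylated DNA under that level. Sequencing depth is unknown, so a longer list can also be a deeper one, and methylation of some of the cells cannot be told apart from methylation of all of them.

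Collagens are secreted or membrane-bound proteins built from chains that wind into a triple helix. Fibrillar collagens assemble into the tension-bearing fibrils of connective tissue, type IV collagen forms sheets under epithelium and endothelium, and the other families coat fibrils, anchor membranes or span the cell surface. They are made mainly by fibroblasts, cartilage, epithelium and endothelium, whereas lymphocytes make little of most of them. Capture peaks over a promoter mark methylated cytosines around the transcription start, a state often found at silent genes, while methylation inside a gene body is common at both silent and expressed genes.

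Promoter peaks at collagen genes lay mostly in the lymphoma lists. A gene was given a promoter peak where any peak overlapped the 1 kb on either side of its transcription start by at least 1 bp. In the L lists, 19 of 37 collagens had a promoter peak in lymphoma (all genes, 31.5%) and 4 in healthy blood (19.3%). In the M-H lists, the counts were 22 in lymphoma (all genes, 28.9%) and 4 in healthy blood (10.9%). A promoter peak in L lymphoma without one in L healthy blood was found at 15 of 37 collagens (40.5%), against 16.0% of all measured genes, and the reverse at 0 of 37, against 3.86%. In M-H, 19 of 37 (51.4%) had a lymphoma peak alone, against 18.7% of all genes, and 1 of 37 had a healthy peak alone, against 0.716%. Among named protein-coding genes the lymphoma-alone shares were 17.0% in L and 20.3% in M-H. Both lists held a peak at 4 collagens in L (all genes, 15.5%) and at 3 in M-H (10.2%). The measured set, of collagens and of all genes, holds only genes with an assigned peak in some list. Of the collagens counted as lymphoma alone, COL1A2, COL4A3, COL7A1 and COL19A1 had no healthy peak anywhere, so they entered the set through lymphoma peaks. The collagens without an assigned peak are in none of these shares.

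The 13 collagens with a promoter peak in both lymphoma lists and in neither healthy list were COL1A2, COL5A3, COL4A3, COL4A4, COL6A5, COL6A6, COL7A1, COL8A1, COL13A1, COL14A1, COL16A1, COL19A1 and COL23A1. They made up 35.1% of the collagens, against 1884 of 18147 genes (10.4%). COL4A3 and COL4A4 enter this count on a single shared peak. A further 13 collagens had no promoter peak in any list, also 35.1%, against 60.2% of all genes. They were COL1A1, COL5A1, COL4A1, COL4A2, COL4A5, COL4A6, COL9A1, COL9A2, COL17A1, COL21A1, COL22A1, COL26A1 and COL28A1. Over both library types together, 17 collagens (45.9%) had promoter peaks in lymphoma lists alone, 1 in a healthy list alone and 6 in lists of both groups, against 16.9%, 3.88% and 19.0% of all genes.

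**Figure D1:**
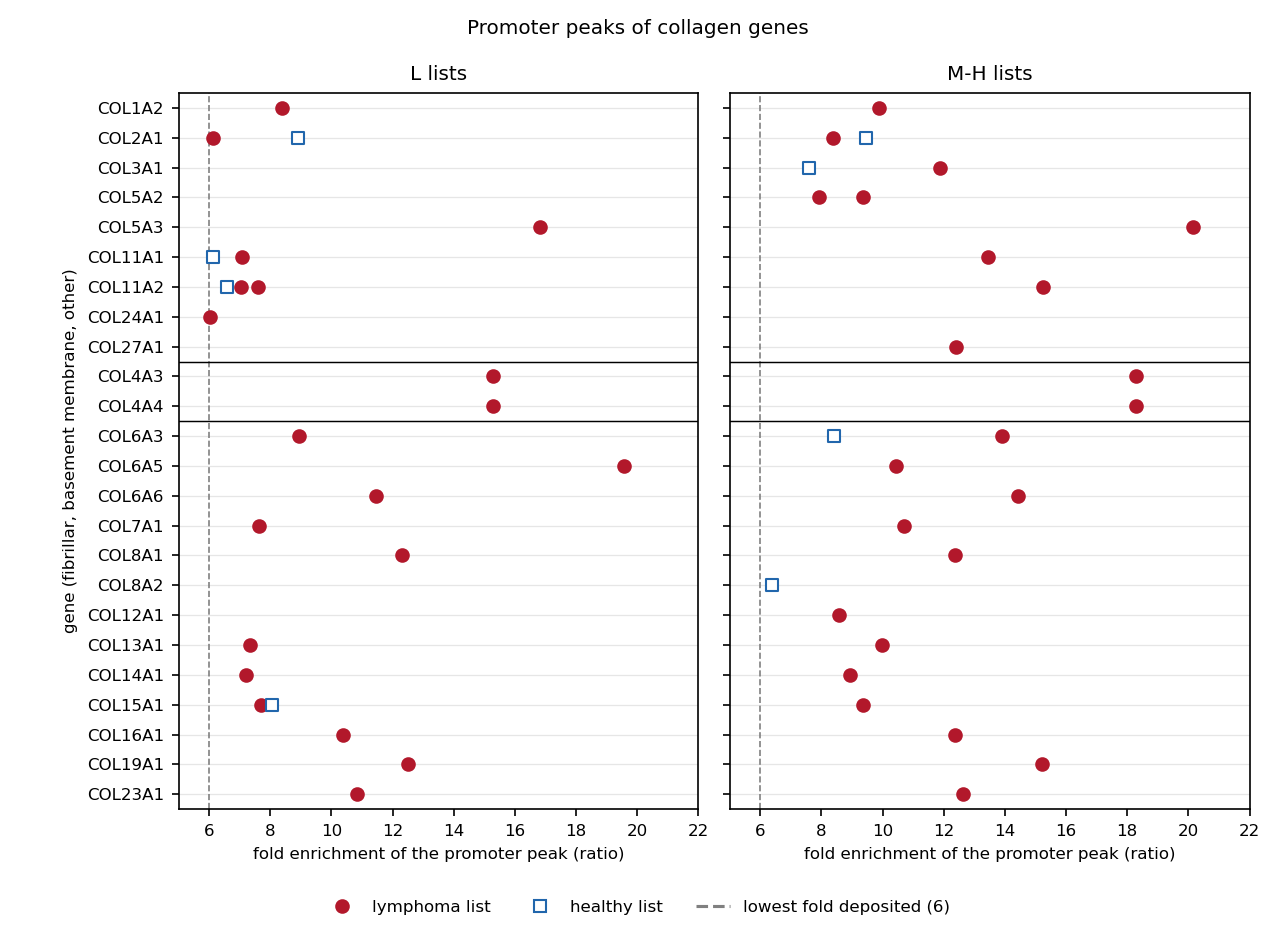
Fold enrichment (ratio, x axis) of each promoter peak of the 24 collagens that had one, with L lists on the left and M-H lists on the right; filled circles are lymphoma lists, open squares healthy lists, and the dashed line is the lowest value deposited. Horizontal lines separate fibrillar, basement membrane and other collagens; healthy squares are few, 4 genes in each panel, and stand at 9.46 or lower.

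Among the fibrillar collagens, COL1A2 and COL5A3 had lymphoma peaks in both library types and no healthy peak. COL1A2 encodes the second chain of type I collagen, the main collagen of skin, tendon and bone. Its promoter peak had a fold enrichment of 8.37 in lymphoma L (CanFam3.1 chr14:19883020-19883961) and 9.90 in lymphoma M-H (chr14:19883008-19883544). COL1A1, the other chain of type I, had no promoter peak, and its nearest peaks lay inside the gene 1590 and 1676 bp from the start in lymphoma L and M-H and 1836 and 1942 bp in healthy L and M-H. COL5A3, a chain of type V collagen, which controls fibril diameter, had 16.8 in lymphoma L (chr20:51037430-51038354) and 20.2 in lymphoma M-H (chr20:51037366-51037978). These values stood at the 94.3 and 97.5 percentiles of their lists. The authors assign both COL5A3 peaks to the neighbouring gene RDH8, a retinol dehydrogenase, although each of them spans the recovered COL5A3 start.

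COL2A1, the collagen of cartilage, was the collagen with a promoter peak in all 4 lists. The fold enrichment was 6.12 in lymphoma L and 8.92 in healthy L, and 8.40 in lymphoma M-H and 9.46 in healthy M-H. The 2 lymphoma peaks spanned the start and were 2075 and 1926 bp long, whereas the healthy peaks were 638 and 408 bp long and ended 666 and 814 bp upstream of it. COL11A1 and COL11A2 encode chains of type XI collagen, which seeds the thin fibrils of cartilage. The COL11A1 values were 7.07 in lymphoma L, 6.13 in healthy L and 13.5 in lymphoma M-H. COL11A2 had 2 peaks in lymphoma L at 7.61 and 7.05, 1 in healthy L at 6.59 and 1 in lymphoma M-H at 15.3. Neither of these genes had a peak in healthy M-H, so both counted as shared in L and as lymphoma alone in M-H.

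The remaining fibrillar promoters differed by library type. COL3A1, whose type III collagen forms the reticular fibres of lymphoid organs, had peaks in lymphoma M-H at 11.9 and healthy M-H at 7.60, and none in L. Both COL3A1 peaks lay inside the gene, beginning 358 and 345 bp past the start. COL5A2, the second chain of type V, had 2 peaks in lymphoma M-H, at 9.38 and 7.93, and none elsewhere. COL27A1, a fibrillar collagen of developing cartilage, had 12.4 in lymphoma M-H alone. COL24A1, a related fibrillar collagen of developing bone, had 6.03 in lymphoma L alone, just above the lowest value deposited. Its nearest lymphoma M-H peak, at 7.22, lay 1249 bp from the start, outside the window. So did its nearest healthy L peak, at 7.77 and 2010 bp from the start. In all, 3 of 11 fibrillar collagens had a lymphoma peak alone in L (27.3%; all genes, 16.0%) and 3 had peaks in both lists (27.3%; all genes, 15.5%). In M-H these counts were 6 (54.5%; all genes, 18.7%) and 2 (18.2%; all genes, 10.2%).

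The type IV genes lie as head-to-head pairs, and the 3 pairs differed, also in the distance between the recovered starts. COL4A3 and COL4A4 encode chains of the network found in the kidney glomerulus and other specialised basement membranes. Their starts lie 488 bp apart, and 1 peak covered the region in lymphoma L at 15.3 (chr25:39975316-39976183) and in lymphoma M-H at 18.3 (chr25:39975613-39976245). These values stood at the 90.3 and 92.4 percentiles of their lists, and neither healthy list held a peak there. COL4A1 and COL4A2, the chains present in nearly all basement membranes, have starts 4630 bp apart, and no list held a peak between them or within 1 kb of either. COL4A5 and COL4A6, on chromosome X with starts 1114 bp apart, also had no promoter peak in any list. Lymphoma-alone promoters thus numbered 2 of 6 in each library type (all genes, 16.0% in L and 18.7% in M-H) and came from the single COL4A3 and COL4A4 region.

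The beaded-filament collagens of type VI, which link cells to the surrounding matrix, had lymphoma promoter peaks at all 3 measured members in both library types. Among all genes these shares were 31.5% in L and 28.9% in M-H. COL6A1, COL6A2 and COL6A4 had no assigned peak and are not in this count. COL6A5 had 19.6 in lymphoma L (chr23:27596338-27596961), at the 98.5 percentile of that list, and 10.4 in lymphoma M-H, at the 53.1 percentile. COL6A6 had 11.5 in lymphoma L and 14.4 in lymphoma M-H. Neither gene had a healthy promoter peak (all genes, 19.3% in L and 10.9% in M-H). COL6A3 had 8.95 in lymphoma L, and in M-H it had 13.9 in lymphoma and 8.41 in healthy blood, all annotated as 5'UTR.

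The fibril-associated collagens, which sit on the surface of fibrils and tether them to other matrix, had lymphoma-alone promoters at 3 of 8 members in L (all genes, 16.0%) and 4 of 8 in M-H (18.7%). COL14A1 had 7.19 in lymphoma L and 8.95 in lymphoma M-H, over peaks of 2478 and 1903 bp that reached more than 2 kb into the gene. COL16A1 had 10.4 and 12.4, and COL19A1 had 12.5 and 15.2, in lymphoma L and M-H. COL12A1 had 8.57 in lymphoma M-H alone. Its closest lymphoma L peak, at 7.26, lay 1804 bp upstream in a CpG island, outside the window. A healthy L peak at 9.62 began 2868 bp into the gene. A healthy M-H peak at 8.09 began 2921 bp into the gene, and both were outside the window.

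Among collagens of the cell surface, COL13A1, a membrane-spanning collagen of the neuromuscular junction, had 7.34 in lymphoma L and 9.98 in lymphoma M-H. COL23A1, another membrane-spanning collagen, had 10.8 and 12.6 in the same lists. COL7A1, which builds the anchoring fibrils of skin, had 7.63 and 10.7. None of the 3 had a healthy promoter peak, which 19.3% of all genes had in L and 10.9% in M-H. A healthy L peak at 6.58 lay 3803 bp from the COL13A1 start, outside the window. COL17A1, the other measured membrane-spanning collagen, had no promoter peak in any list. COL15A1, found where basement membranes meet connective tissue, had 7.70 in lymphoma L, 8.06 in healthy L and 9.35 in lymphoma M-H. COL8A1 and COL8A2, the chains of the short-chain network under corneal and vascular endothelium, differed in their calls. COL8A1 had 12.3 in lymphoma L and 12.4 in lymphoma M-H, and COL8A2 had 6.37 in healthy M-H alone, the only collagen promoter with healthy peaks and no lymphoma peak.

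**Figure D2:**
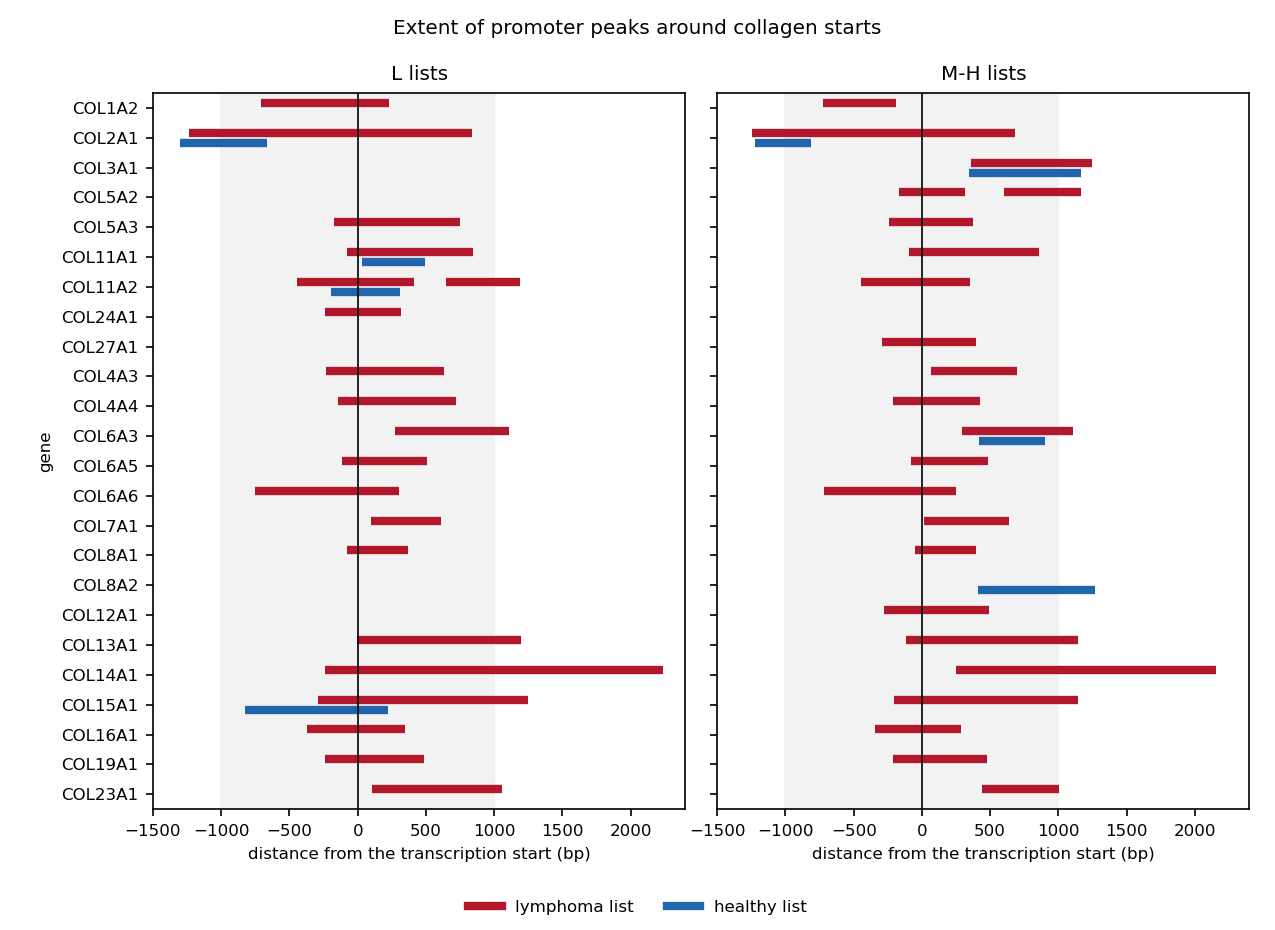
Extent of each promoter peak relative to the transcription start (x axis, bp, with positive values inside the gene) for the 24 collagens, in L lists (left) and M-H lists (right), with red bars for lymphoma and blue bars for healthy lists and the window of 1 kb on either side shaded. Most lymphoma bars cross the start; the healthy COL2A1 bars end 666 and 814 bp before it.

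The promoter peaks of collagens lay mostly at the edges of CpG islands, as did most promoter peaks of all genes in the lymphoma lists. The authors flag a peak as lying in an island or in a shore, the stretch next to an island. In lymphoma L, 14 of 19 collagen promoter peaks (73.7%) were in a shore and 4 (21.1%) in an island, against 60.0% and 17.2% of all promoter peaks of that list. In lymphoma M-H, 16 of 22 (72.7%) were in a shore and 5 (22.7%) in an island, against 61.7% and 22.5%. The 4 healthy L peaks were all in shores (all promoter peaks, 48.9%), and 3 of 4 healthy M-H peaks were (53.7%). The median fold enrichment of collagen promoter peaks was 8.37 in lymphoma L, against 9.23 for all promoter peaks of that list, and 12.1 in lymphoma M-H, against 10.5.

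Within lymphoma, the library types shared 18 collagen promoters. Of 37 collagens, 18 had a promoter peak in lymphoma L and lymphoma M-H (48.6%; all genes, 24.4%), COL24A1 had one in L alone (all genes, 7.09%), and COL3A1, COL5A2, COL27A1 and COL12A1 had one in M-H alone (4.45%). With peaks under a fold enrichment of 8 left out, 11 were shared and 11 were in M-H alone. The shares of all genes at this cut were not taken. The median fold enrichment was 8.92 in lymphoma L and 10.1 in lymphoma M-H, so the cut takes more from the L list. Whether the rise in M-H alone is particular to collagens was therefore not tested. Within healthy blood, COL2A1 was found in both (7.30% of all genes), COL11A1, COL11A2 and COL15A1 in L alone (12.0%), and COL3A1, COL6A3 and COL8A2 in M-H alone (3.59%). The 2 library types come from the same dogs, but the pooled lists allow no pairing.

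**Figure D3:**
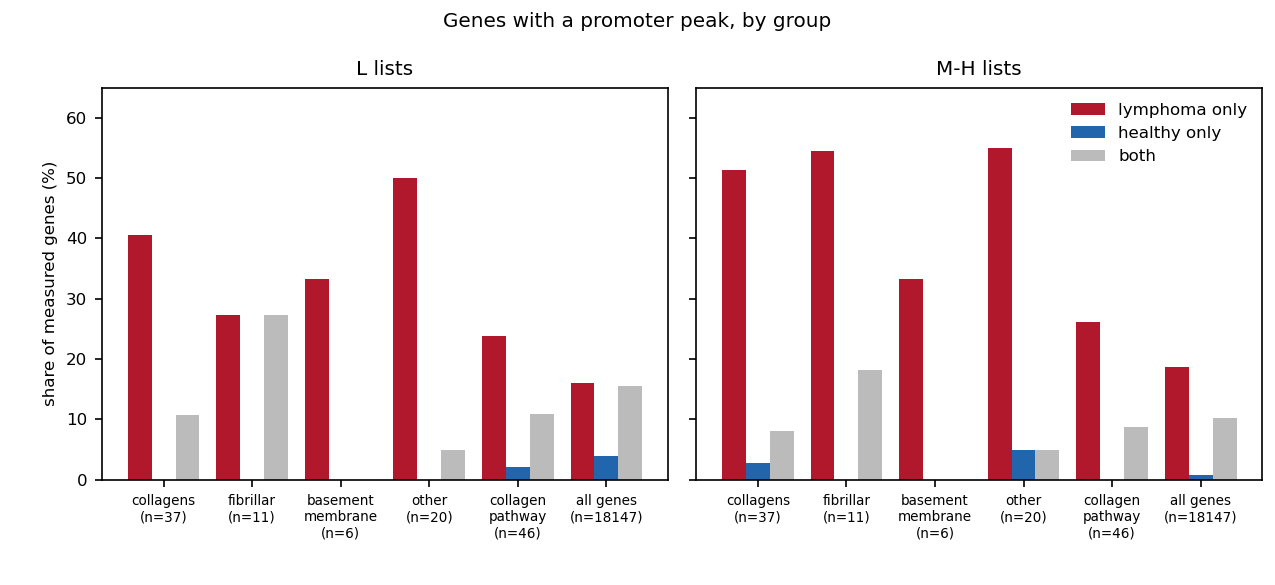
Share of measured genes (y axis, %) with a promoter peak in lymphoma alone, in healthy blood alone or in both, in L lists (left) and M-H lists (right), for all collagens, their 3 classes, the collagen pathway genes and all genes. The lymphoma-alone bar of the collagens stands at 40.5% in L and 51.4% in M-H, against 16.0% and 18.7% for all genes.

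The enzymes and receptors that make, cross-link and bind collagen were looked at in the same way, and 46 of 61 listed genes were measured. In L, 11 of 46 had a promoter peak in lymphoma alone (23.9%), 1 in healthy blood alone (2.17%) and 5 in both (10.9%), against 16.0%, 3.86% and 15.5% of all genes. In M-H these counts were 12 (26.1%), 0 and 4 (8.70%), against 18.7%, 0.716% and 10.2%. The lymphoma-alone shares of the pathway list lay nearer to those of all genes than those of the collagens did. The cross-linking enzymes stood at 3 of 5 in each library type. LOX, the lysyl oxidase that starts collagen cross-links, had 6.69 in lymphoma L and 12.7 in lymphoma M-H. LOXL2 had 7.47 and 11.3, and LOXL4 had 10.7 and 11.0, with no healthy promoter peak at any of the 3. LOXL1 and LOXL3 had none in any list.

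Of the genes for hydroxylation and folding, lymphoma-alone promoters numbered 4 of 15 in L (26.7%) and 3 of 15 in M-H (20.0%), the second near the 18.7% of all genes. P3H2, a prolyl 3-hydroxylase, had 10.0 in lymphoma L and 11.8 in lymphoma M-H, its relative P3H3 had 6.88 and 8.23, and COLGALT2, a collagen galactosyltransferase, had 9.50 and 9.99. TMEM38B, an endoplasmic reticulum ion channel, had 6.16 in lymphoma L alone. Among genes for propeptide removal, the enhancer protein PCOLCE2 had 9.11 and 14.3 in lymphoma L and M-H. The protease ADAMTS14 had opposite calls, with no lymphoma peak and 6.27 in healthy blood in L, and 8.70 in lymphoma and no healthy peak in M-H. Among 11 receptors, the integrin chains ITGA1 (8.13 and 14.0) and ITGA2 (8.10 and 11.2) had peaks in lymphoma L and M-H alone, and the receptor kinase DDR2 had 7.08 in lymphoma M-H alone. Of 5 collagen-degrading proteases, the membrane-bound MMP14 had 9.08 and 11.1 in lymphoma L and M-H and no healthy peak. Lymphoma-alone shares in L and M-H were 14.3% and 28.6% of the 7 propeptide removal genes. They were 18.2% and 27.3% of the receptors and 20% in each for the proteases. Among all genes they were 16.0% and 18.7%, so several of these small groups lay near that share. None of the 3 measured fibril-binding proteoglycans had a promoter peak.

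Markers of the cell types that the samples could hold were set beside these counts. None of the 8 measured B-cell markers had a lymphoma promoter peak in either library type, and POU2AF1, a B-cell coactivator, had a healthy L peak at 9.41. Of 9 measured fibroblast markers, THY1, FBLN2 and TCF21 had lymphoma-alone promoters in L, and TCF21 alone did in M-H, where FBLN2 was found in both groups. Of 7 endothelial markers, FLT4 and CLDN5 were lymphoma alone in L, joined by KDR in M-H, and CDH5 was healthy alone in L. In L, KDR was found in both groups, at 7.44 in lymphoma and 15.2 in healthy blood. VWF was found in both groups in each library type. CD8A of 8 T-cell markers and CD14 and FCGR1A of 6 monocyte markers were lymphoma alone in both library types, and CD5 was healthy alone in L. Over the 38 measured markers of all 5 cell types, lymphoma-alone promoters made up 21.1% in L and 18.4% in M-H, near the 16.0% and 18.7% of all genes. By cell type, with 6 to 9 genes each, the share was 33.3% in L and 11.1% in M-H for fibroblasts, and 28.6% and 42.9% for endothelium. It was 12.5% in each for T cells, 33.3% in each for monocytes and 0% in each for B cells. The part that cell composition has in the collagen counts was not tested.

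Inside the genes, collagens held 335 peaks over the 4 lists, at 33 of 37 genes. A gene body peak is one that the authors place in an intron, coding sequence or untranslated region of the gene, outside its promoter window. Lymphoma L held 115 and healthy L 91, and lymphoma M-H held 85 and healthy M-H 44. COL1A2, COL4A3, COL7A1 and COL8A2 had none. Long genes can hold more peaks, and gene lengths of the build were not used here, so counts per gene are not scaled by length.

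In L, 55 of 115 lymphoma peaks (47.8%; 95% Wilson interval 38.9 to 56.9%) overlapped no healthy L peak, against 34.0% of all gene body peaks of that list. In the other direction 31 of 91 healthy peaks (34.1%; interval 25.2 to 44.3%) overlapped no lymphoma L peak, against 37.7% of all. In M-H, 50 of 85 lymphoma peaks (58.8%; interval 48.2 to 68.7%) stood alone, against 47.6%, and 9 of 44 healthy peaks (20.5%; interval 11.2 to 34.5%) did, against 10.5%. The intervals cover counting error only, with peaks of the same gene taken as separate. With both M-H lists cut to the same number of peaks the order turned, since 9 of 34 lymphoma peaks (26.5%; all genes, 27.4%) and 19 of 44 healthy peaks (43.2%; all genes, 33.7%) stood alone. With L lists of equal length the L counts were 52 and 31.

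By gene, 18 of 37 collagens had more gene body peaks in lymphoma L than in healthy L and 5 had fewer, against 16.8% with more and 22.7% with fewer among all genes. In M-H, 17 had more in lymphoma and 2 had fewer, against 22.9% and 2.83%. Many genes hold no gene body peak, so the shares were also taken over genes with at least 1 in either list. In L, 56.2% of 32 such collagens had more peaks in lymphoma and 15.6% had fewer, against 27.2% and 36.8% of 11186 genes. In M-H, 63.0% of 27 such collagens had more and 7.41% had fewer, against 54.5% and 6.74% of 7631 genes, so that the M-H shares lay near those of all genes. By class, the fibrillar collagens held 27 lymphoma L and 17 healthy L peaks, and 26 lymphoma M-H and 13 healthy M-H peaks. The type IV collagens held 23 lymphoma L and 18 healthy L peaks, and 15 lymphoma M-H and 11 healthy M-H peaks. The other collagens held 65 lymphoma and 56 healthy peaks in L, and 44 lymphoma and 20 healthy peaks in M-H.

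**Figure D4:**
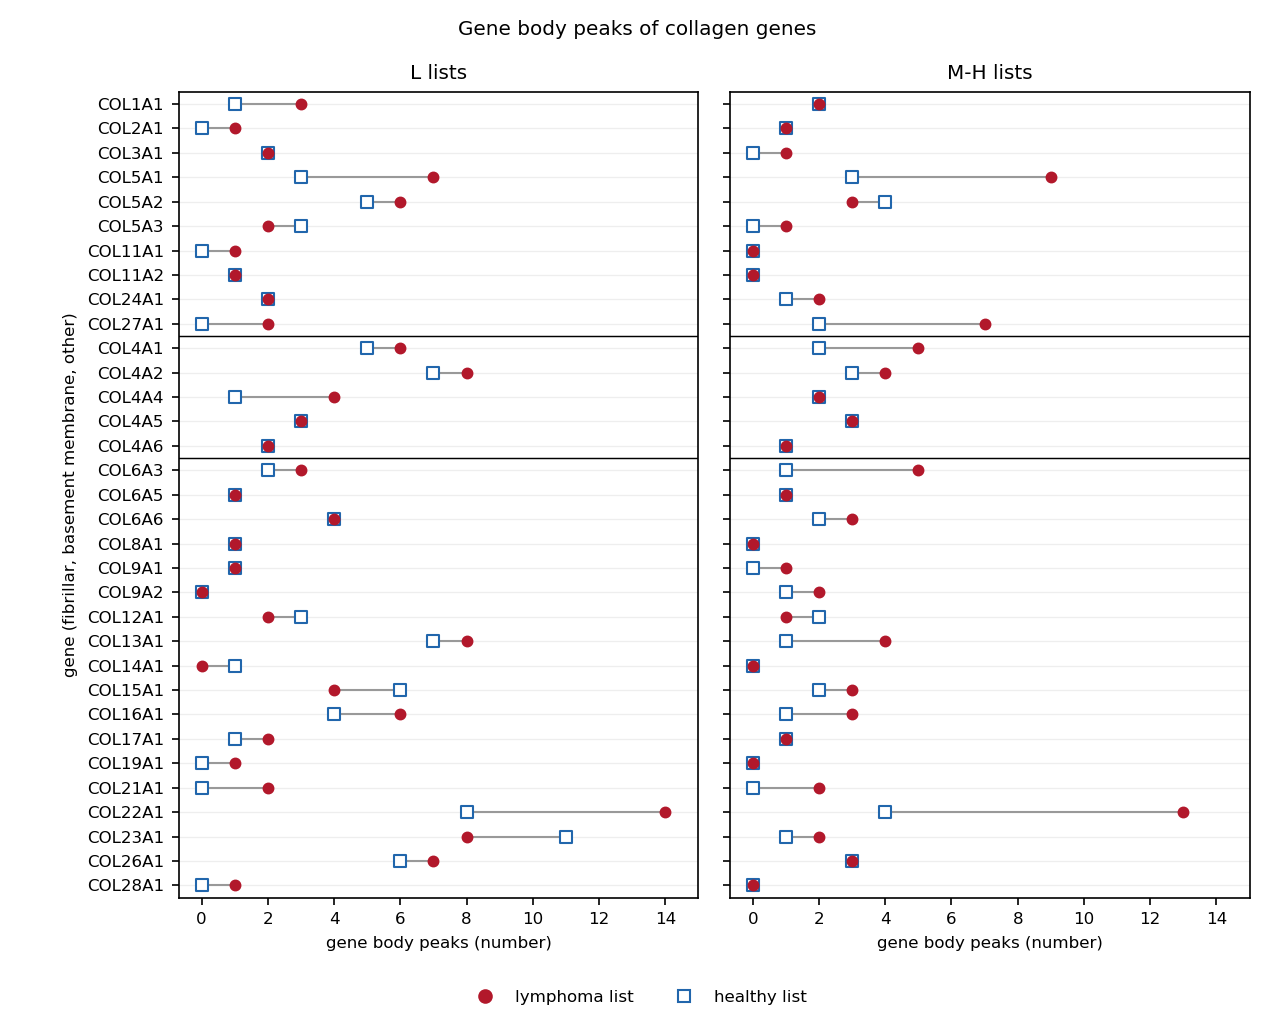
Number of gene body peaks (x axis) of the 33 collagens that had any, in L lists (left) and M-H lists (right), with filled circles for lymphoma and open squares for healthy blood joined by a line. Horizontal lines separate fibrillar, basement membrane and other collagens; COL22A1 has the most peaks, 14 in lymphoma L and 13 in lymphoma M-H, against 8 in healthy L and 4 in healthy M-H.

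When peaks of the 4 lists that overlap were merged, the collagens held 166 gene body loci. Of these, 52 (31.3%) were found in lymphoma lists alone, 33 (19.9%) in healthy lists alone and 81 (48.8%) in lists of both groups, against 20.8%, 26.6% and 52.5% of 32583 loci over all genes. The lymphoma-alone share was 34.1% of 41 fibrillar loci, 18.5% of 27 type IV loci and 33.7% of 98 loci of other collagens. The type IV genes had 66.7% of their loci in lists of both groups.

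COL22A1, a fibril-associated collagen of tissue junctions such as that of muscle and tendon, held the most loci. Of its 18 loci, 7 were in lymphoma lists alone and 1 in a healthy list alone. The 4 COL22A1 loci found in both lymphoma lists and no healthy list lay in introns, 43.3, 67.9, 76.0 and 134.7 kb from the start. The highest of them, at 76.0 kb (chr13:33919871-33920509), had 9.19 in lymphoma L and 11.6 in lymphoma M-H. Of the 9 COL22A1 peaks of lymphoma M-H that overlap no healthy M-H peak, only those at 9.49 and 11.6 exceed 9.32. That is the lowest value kept when the M-H lists are cut to equal length. COL22A1 had no promoter peak in any list.

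COL5A1, the main chain of type V collagen, also had no promoter peak but held 7 gene body peaks in lymphoma L and 3 in healthy L, and 9 in lymphoma M-H and 3 in healthy M-H. Of its 13 loci, 7 were in lymphoma lists alone and 3 in healthy lists alone. The 4 COL5A1 loci found in both lymphoma lists alone lay 44.7 to 131.7 kb from the start, with fold enrichments between 6.55 and 9.60. The highest COL5A1 locus, at 87.7 kb, was also in healthy M-H, with 14.8 in lymphoma L, 12.9 in lymphoma M-H and 10.3 in healthy M-H. COL27A1 held 2 peaks in lymphoma L and 0 in healthy L, and 7 in lymphoma M-H and 2 in healthy M-H. Its 5 lymphoma-alone loci were all in the M-H list, with values from 6.52 to 8.30. All 5 fall under 9.32, the lowest value kept when the M-H lists are cut to equal length. So do all 8 COL5A1 peaks of lymphoma M-H that overlap no healthy M-H peak, at 6.04 to 7.96.

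The other fibrillar genes were closer between groups. COL5A2 held 6 peaks in lymphoma L and 5 in healthy L, and 3 in lymphoma M-H and 4 in healthy M-H, with none of its 8 loci in lymphoma lists alone. Its highest locus, in an intron 23.3 kb from the start, was in all 4 lists, at 15.1 in lymphoma L and 10.3 in healthy L, and at 16.9 in lymphoma M-H and 9.71 in healthy M-H. COL1A1 held 3 peaks in lymphoma L and 1 in healthy L, and 2 in each M-H list. COL24A1 held 2 in each L list, and 2 in lymphoma M-H and 1 in healthy M-H, and its intronic locus 280.7 kb from the start had 13.5 in lymphoma L, 14.6 in healthy L, 12.5 in lymphoma M-H and 7.77 in healthy M-H. COL5A3 held 2 peaks in lymphoma L and 3 in healthy L, and 1 in lymphoma M-H and 0 in healthy M-H.

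Among type IV genes, COL4A2 held 8 peaks in lymphoma L and 7 in healthy L, and 4 in lymphoma M-H and 3 in healthy M-H. COL4A1 held 6 in lymphoma L and 5 in healthy L, and 5 in lymphoma M-H and 2 in healthy M-H. COL4A5 held 3 peaks in every list, and all 3 of its loci were found in all 4 lists. COL4A4 held 4 in lymphoma L and 1 in healthy L, and 2 in each M-H list. COL4A6 had the highest type IV locus, in an intron 157.8 kb from the start (chrX:81822690-81823632), at 16.5 in lymphoma L and 13.5 in healthy L, and at 18.4 in lymphoma M-H and 17.5 in healthy M-H. COL4A1 and COL4A2, with bare promoters, thus held 18 gene body loci in all.

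The other collagens showed both directions. COL23A1 held 8 peaks in lymphoma L and 11 in healthy L, and 2 in lymphoma M-H and 1 in healthy M-H, with 5 of its 13 loci in healthy lists alone and 2 in lymphoma lists alone, although its promoter peak was in lymphoma lists. COL13A1 held 8 peaks in lymphoma L and 7 in healthy L, and 4 in lymphoma M-H and 1 in healthy M-H. COL26A1 held 7 in lymphoma L and 6 in healthy L, and 3 in each M-H list. COL16A1 held 6 in lymphoma L and 4 in healthy L, and 3 in lymphoma M-H and 1 in healthy M-H. COL15A1 held 4 in lymphoma L and 6 in healthy L, and 3 in lymphoma M-H and 2 in healthy M-H. COL21A1, a fibril-associated collagen, held 2 intronic loci, both in the 2 lymphoma lists and in neither healthy list. The stronger of them, at 58.5 kb (chr12:23528626-23529718), had 14.0 in lymphoma L and 14.9 in lymphoma M-H.

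The highest gene body peaks of the other collagens were found in all 4 lists. The COL6A5 locus in coding sequence 41.5 kb from the start (chr23:27637655-27638342) had 20.5 in lymphoma L and 12.1 in healthy L, and 19.3 in lymphoma M-H and 11.2 in healthy M-H. The COL12A1 locus in the 3'UTR had 18.0 in lymphoma L and 7.36 in healthy L, and 21.9 in lymphoma M-H and 12.3 in healthy M-H. The COL6A6 locus 114.3 kb from the start had 18.7 in lymphoma L and 13.1 in healthy L, and 21.0 in lymphoma M-H and 13.3 in healthy M-H. Fold enrichment ranks peaks within a list and was not compared between lists.

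**Figure D5:**
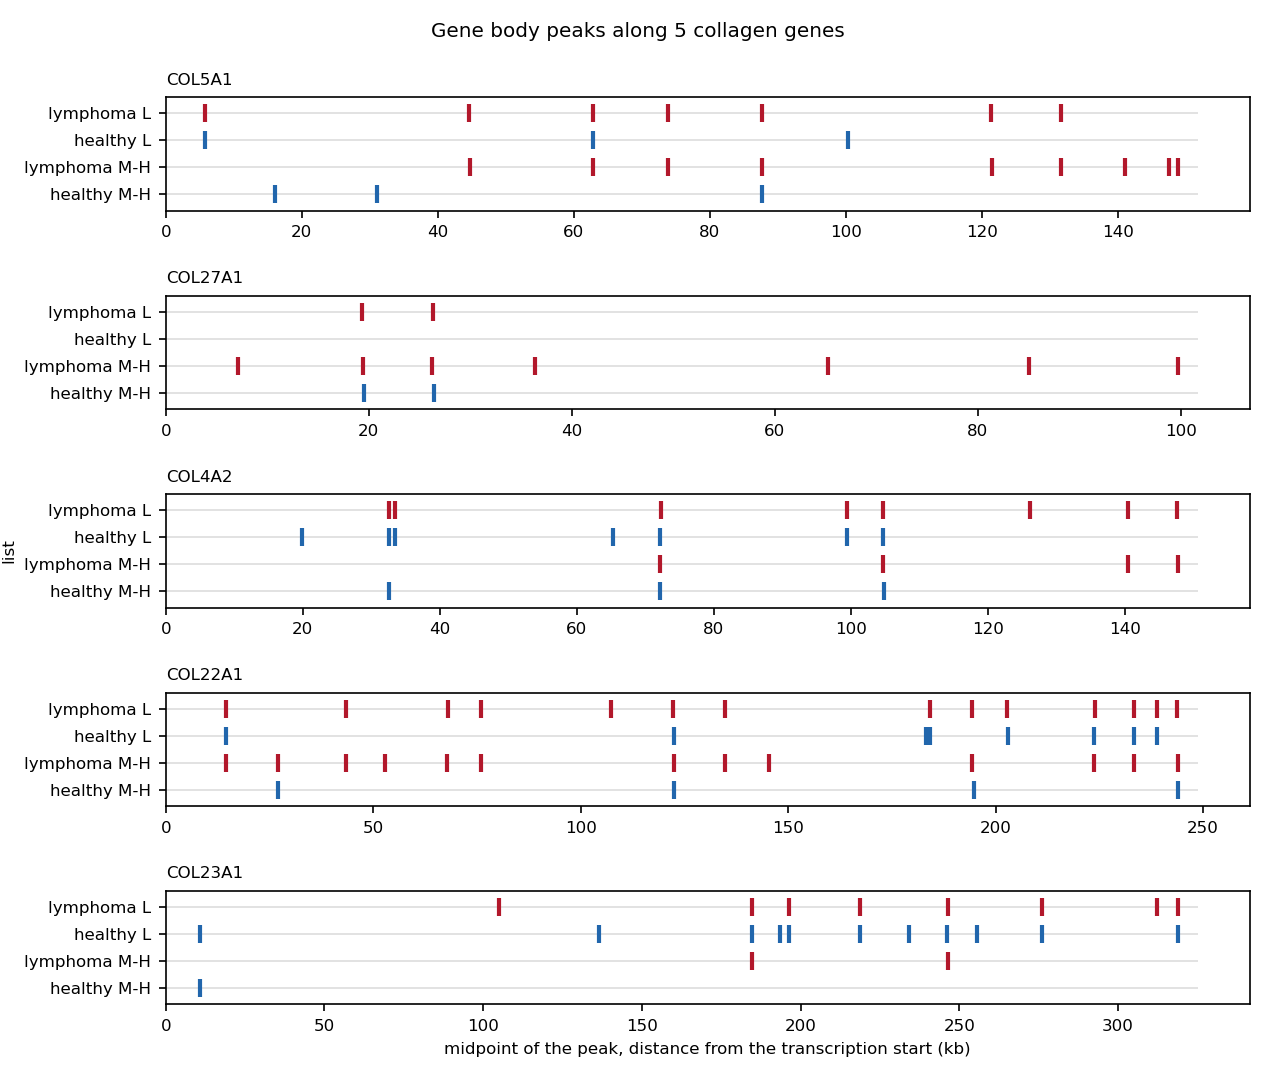
Midpoints of gene body peaks along COL5A1, COL27A1, COL4A2, COL22A1 and COL23A1 (x axis, kb from the transcription start), with a row for each list, red for lymphoma and blue for healthy blood. COL5A1 and COL22A1 each have 4 positions marked in both lymphoma rows alone, and COL23A1 has 11 marks in the healthy L row, against 8 in the lymphoma L row.

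Gene body peaks of collagens were mainly intronic. Introns held 86.1% of the 115 lymphoma L peaks, against 78.7% of all gene body peaks of that list, and 80.2% of the 91 healthy L peaks, against 80.3%. In M-H, introns held 84.7% of collagen peaks in lymphoma (all, 75.6%) and 68.2% in healthy blood (all, 72.3%). Coding sequence held 9.57% of the lymphoma L peaks (all, 11.5%) and 16.5% of the healthy L peaks (all, 11.8%). In M-H it held 10.6% in lymphoma (all, 13.7%) and 12 of 44 peaks in healthy blood (27.3%, against 19.5% of all). CpG shores held 27.8% of the lymphoma L peaks and 12.1% of the healthy L peaks, close to the 27.4% and 14.6% of all gene body peaks. Peaks in the authors' enhancers were few, 1 of 115 in lymphoma L and 0 of 91 in healthy L, and 1 of 85 in lymphoma M-H and 1 of 44 in healthy M-H, against 3.82% to 5.19% of all gene body peaks in the 4 lists.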

How the data were processed

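Peak lists were deposited by the authors as 1 table per group and library type; the submitters' processing notes list BWA, MACS2 and CanFam3.1 with no version of the tools. Per the file headers each peak has a position, a fold enrichment (a ratio), an assigned gene and its distance to the transcription start. The labels do not say how dogs were combined. Starts were recovered from peak position and distance, with 1 start for each of the 37 collagens. Peak starts were read as 0-based and are printed 1-based. Symbols of 36 of the 37 matched RefSeq names of another assembly, from which no coordinate was taken. Promoter and gene body calls, overlaps and loci were computed with pandas 2.3.3 on Python 3.11.15, and the steps were tested on simulated data; scipy 1.17.1 gave Wilson intervals. Samples were grouped by their labels. No test between groups was run, because each group has 1 list; counts of collagens, of the pathway list and of the markers together stand beside the shares over all genes. Promoters and pathway genes were named if they had a peak as described; for gene bodies, the 6 collagens with most peaks per class and those with the highest fold enrichment per list were named, and COL21A1, COL1A1's distances and the locus positions were picked after their values were seen. The collagens and the gene lists were chosen with earlier results of these data known. Alternatives were another promoter window, a fold enrichment of at least 8, equal list lengths, peak midpoints, a wider window for absence and other overlaps.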

Additional observations from a re-analysis of the deposited data

How the results depend on the processing

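The lymphoma-alone promoter counts kept their direction under every alternative run, at 11 to 16 collagens in L and 14 to 20 in M-H. Among all genes, lymphoma-alone promoters also outnumbered healthy-alone ones wherever such shares were taken. There the L shares were 29.7 to 43.2% of collagens, against 12.6 to 16.7% of all genes. In M-H they were 45.9 to 54.1%, against 10.5 to 19%. No such shares were taken for the alternatives chosen after seeing the data. For promoters in L alone or M-H alone within a group, no alternative had its share over all genes taken. Of 86 alternative values 65 were within 1.5 times the reported count, and the 21 others follow, the cause of which was not tested except where fewer peaks enter. With peaks under a fold enrichment of 8 left out, healthy-alone promoters numbered 2 in L and 0 in M-H, lymphoma promoters in L alone 0 and in M-H alone 11, and healthy promoters in L alone 1 and in M-H alone 1. Gene body peaks without overlap then numbered 34 in lymphoma and 10 in healthy blood in L, and 25 and 4 in M-H, and the lymphoma M-H share, 55.6%, was below the 59.6% of all genes. With lists of equal length, healthy-alone promoters in M-H numbered 2, lymphoma promoters in L alone 0 and healthy promoters in L alone 0, and gene body peaks without overlap in M-H were 9 in lymphoma and 19 in healthy blood, which turns the order. With no peak of the other list within 5 kb, lymphoma promoters in L alone numbered 0. With peaks assigned by the authors to the collagen itself, an alternative chosen after seeing the data, they numbered 2, and with the authors' flag for a transcription start, also chosen after seeing the data, 4, while healthy-alone promoters in M-H and healthy promoters in M-H alone were then 0 each. Counting COL7A1 and COL15A1 with the basement membrane collagens gave 4 one-group promoters in M-H. No paired analysis was possible because the lists are pooled over dogs. Unknown depth limits every count of missing peaks.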
